A study of Mus musculus with 8 samples.

Results

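Many voltage-gated calcium channels of neurons consist of a pore subunit and 2 kinds of auxiliary subunit, called beta and alpha2delta. The members described here are the 7 genes Cacnb1, Cacnb2, Cacnb3 and Cacnb4, which encode the beta subunits, and Cacna2d1, Cacna2d2 and Cacna2d3, which encode alpha2delta subunits. They were chosen by gene symbol, and each had 1 entry among the 46078 gene entries of the count table. All 7 passed the filter on low counts and were among the 15859 genes tested. RNA-seq counts came from whole hippocampus of 9-week-old mice on the C57BL/6J background, 4 libraries from wild-type mice (WT) and 4 from mice that carry the Tg(Camk2a-cre)2Gsc transgene as Cre+/- (Cre). The line, CamiCre for short, expresses the Cre recombinase from Camk2a regulatory sequence, chiefly in forebrain excitatory neurons, and the labels name no floxed gene in either group. Whether each library is from its own animal is not stated in the labels, so p-values measure the spread between these libraries, which may be technical.

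Beta subunits are cytoplasmic proteins that bind the intracellular linker between the first and second repeats of the pore subunit. They help bring the channel to the membrane and tune its gating. Alpha2delta subunits are extracellular, membrane-anchored glycoproteins that raise the number of channels at the surface and at release sites, and the products of Cacna2d1 and Cacna2d2 bind the gabapentinoid drugs. In hippocampus these channels trigger transmitter release from nerve terminals and admit calcium into dendrites and somata.

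Library totals ran from 21339996 to 27826871 counts, with TMM factors from 0.988 to 1.01. The tissue label was checked against marker lists. Markers of dentate granule, CA1 pyramidal and CA2 and CA3 pyramidal neurons summed to 351 to 484, 652 to 824 and 353 to 458 CPM (counts per 1000000 normalised counts) over the 8 libraries. Retinal markers stayed below 0.644 CPM. Choroid plexus markers stood at 983 CPM in WT replicate 1 against 22.9 to 34.5 CPM in the other 7 libraries.

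The 7 genes lie on 6 chromosomes (GRCm38, GENCODE M21), none of them the chromosome of Camk2a. The chromosome of Camk2a does not tell where the transgene is inserted, and no insertion site was used here. Cacnb1 is at 98001508 to 98023034 on the minus strand of chromosome 11. Chromosome 2 holds Cacnb2 at 14603088 to 14987908 (plus strand) and Cacnb4 at 52428320 to 52676831 (minus strand). Cacnb3 spans 13.7 kb of chromosome 15 (98630840 to 98644529, plus strand), the shortest of the 7 spans. Cacna2d1 is at 15934691 to 16374511 on chromosome 5 (plus strand) and Cacna2d2 at 107399612 to 107529343 on chromosome 9 (plus strand). Cacna2d3 spans 817 kb of chromosome 14 (28904943 to 29721864, minus strand), the longest of the 7. The counts sum all annotated transcripts of a gene, 6 for Cacnb4 to 16 for Cacnb2, so isoform changes are not visible in them.

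The genes share CpG-rich start regions. RefSeq (GRCm38.p6) gave 12 promoter windows for all 7 genes, each 250 bases before to 50 after an annotated start. Of these, 8 held at least 20 CG dinucleotides, at least 1 window in each gene, against 26.5% of all 32851 windows of that length. Each alpha2delta gene had a single window, with 41 to 43 CG. Each beta gene had at least 1 CpG-rich window and another with 3 to 7 CG, near the median of 7 over all windows. TATAAA, read on both strands, was in 0 of the 12 windows and in 13.6% of all windows. The cyclic AMP response motif TGACGTCA was in 0 of 12 and in 1.79% of all windows. A window without a motif says only that these letters are not in it. The window of Cacna2d2 and both windows of Cacnb2 are printed with CG in capitals, to show the single CpG-rich start of an alpha2delta gene beside the unlike pair of starts of a beta gene.
Cacna2d2, chr9:107399630-107399929, plus strand, 43 CG: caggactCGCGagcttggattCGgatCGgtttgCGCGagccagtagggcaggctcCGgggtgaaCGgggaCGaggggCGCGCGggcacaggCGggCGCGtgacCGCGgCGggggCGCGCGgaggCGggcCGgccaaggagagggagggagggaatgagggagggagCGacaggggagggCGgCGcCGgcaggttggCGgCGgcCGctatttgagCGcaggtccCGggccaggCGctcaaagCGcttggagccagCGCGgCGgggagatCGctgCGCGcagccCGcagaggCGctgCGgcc
Cacnb2, chr2:14604056-14604355, plus strand, 35 CG: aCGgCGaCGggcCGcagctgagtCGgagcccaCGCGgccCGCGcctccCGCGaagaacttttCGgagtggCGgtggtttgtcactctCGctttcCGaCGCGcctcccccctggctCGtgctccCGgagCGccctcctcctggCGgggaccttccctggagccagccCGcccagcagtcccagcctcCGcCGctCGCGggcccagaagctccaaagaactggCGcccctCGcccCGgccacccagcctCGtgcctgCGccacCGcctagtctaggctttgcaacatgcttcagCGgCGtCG
Cacnb2, chr2:14823842-14824141, plus strand, 4 CG: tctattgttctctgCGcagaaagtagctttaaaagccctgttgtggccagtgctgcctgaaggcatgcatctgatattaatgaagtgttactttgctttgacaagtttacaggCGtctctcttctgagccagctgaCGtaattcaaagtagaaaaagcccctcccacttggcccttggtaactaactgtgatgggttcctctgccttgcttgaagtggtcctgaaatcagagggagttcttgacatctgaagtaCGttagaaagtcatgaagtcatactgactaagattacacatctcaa
Gene counts do not tell which start was used in hippocampus.

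The first comparison asked whether any beta or alpha2delta gene differs in mice that carry the Cre transgene. None did by edgeR's quasi-likelihood test: 0 of the 7 members passed an adjusted p of 0.05, where 5 of all 15859 tested genes (0.0315%) passed, and 0 members passed with DESeq2, which called 7 of 15849 genes (0.0442%). At an unadjusted p under 0.05 there were also 0 members, against 3.5% of tested genes. The Cre and WT libraries overlapped in all 7 members, and were separate in 2.31% of tested genes. Log2 fold changes of the members ranged from -0.064 to 0.0085, with 6 negative and 1 positive. Their median was -0.023, beside 0.00036 over all tested genes, of which 49.8% lay below 0.

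**Figure D1:**
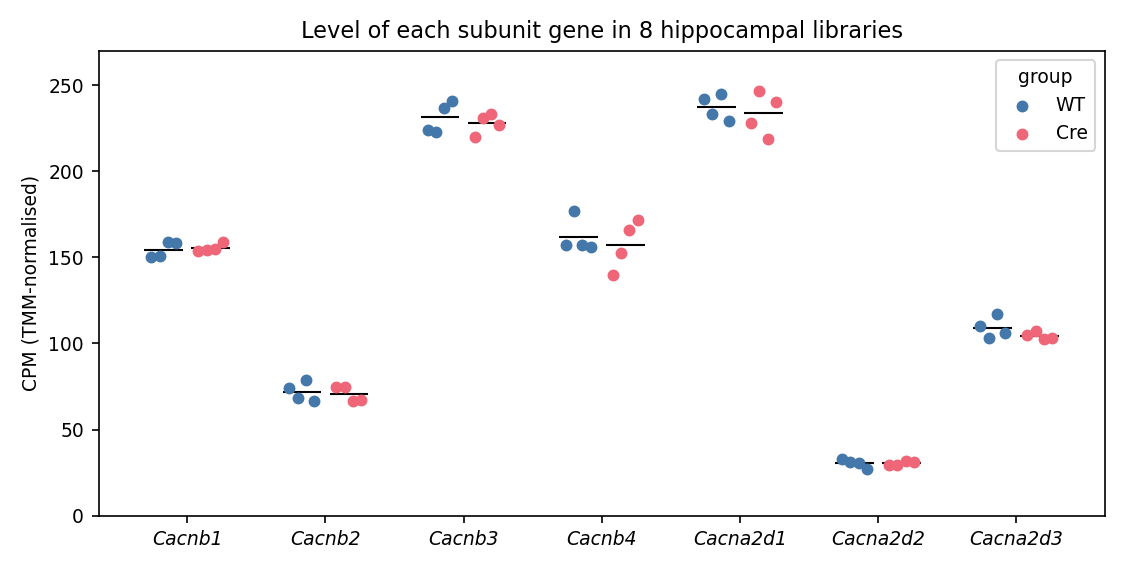
CPM of the 7 subunit genes (vertical axis) in each of 4 WT (blue) and 4 Cre (red) libraries; black lines are group means. The groups overlap in every gene, and the points of Cacnb4 are spread most, from 140 to 177 CPM.

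Among the beta subunits, Cacnb3 had the most counts. Its product is a major partner of N-type and L-type channels in brain. Cacnb3 stood at 224, 223, 237 and 241 CPM in WT and at 220, 231, 233 and 227 CPM in Cre. Of the Cre libraries, 3 lay inside the WT range. The WT mean was 231 ± 9.10 CPM and the Cre mean 228 ± 5.82 CPM (SD, n = 4 each). The fitted log2 fold change was -0.021 (SE 0.039, adjusted p = 0.9995 by edgeR), and the 95% confidence interval ran from a fall of -7.01% to a rise of 4.49%.

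Cacnb4 encodes the beta subunit that is lost in the epileptic and ataxic lethargic mouse. Its level was 157, 177, 157 and 156 CPM in WT and 140, 152, 166 and 172 CPM in Cre. WT replicate 2 stood above the other WT libraries, and Cre replicate 1 was the lowest of all 8. The means were 162 ± 10.01 and 157 ± 14.4 CPM (SD, n = 4 each), with a log2 fold change of -0.040 (SE 0.064, adjusted p = 0.9995 by edgeR). The interval allowed a change between -11.7% and 7.03%, the widest fall of the 7 members. The sign of this fold change rested on single libraries: it was 0.0060 without WT replicate 2 and 0.013 without Cre replicate 1.

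Cacnb1 encodes the beta subunit of skeletal muscle channels, which the brain also expresses. Cacnb1 gave 150, 151, 159 and 158 CPM in WT and 153, 154, 155 and 159 CPM in Cre. These are the closest values of the 7 genes, with the highest library 1.06-fold above the lowest. Its log2 fold change was 0.0085 (SE 0.037), and the interval ran from -4.87% to 6.36%.

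Cacnb2 encodes the main beta subunit of cardiac L-type channels. Its level was 73.9, 68.2, 79.0 and 66.4 CPM in WT and 74.6, 74.7, 66.4 and 67.3 CPM in Cre. Both groups thus held high and low libraries. The means were 71.9 ± 5.71 and 70.8 ± 4.51 CPM (SD, n = 4 each), with a log2 fold change of -0.023 (SE 0.061, interval -10.1% to 7.78%). Without WT replicate 3, the highest of the 8, the fold change was 0.026.

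Among the alpha2delta subunits, Cacna2d1 had the most counts. Its product binds thrombospondins as well as channels. Cacna2d1 stood at 242, 233, 245 and 229 CPM in WT and at 228, 247, 219 and 240 CPM in Cre. The Cre libraries spread to both sides of the WT range, with 1 of 4 inside it. The means were 237 ± 7.24 and 234 ± 12.5 CPM (SD, n = 4 each), with a log2 fold change of -0.023 (SE 0.044) and an interval from -7.81% to 5.06%. Without Cre replicate 3 the fold change was 0.0074.

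Cacna2d3 encodes an alpha2delta subunit that supports synapse function and hearing. It had the lowest unadjusted p of the 7 (0.174 by edgeR). Its level was 110, 103, 117 and 106 CPM in WT and 105, 107, 102 and 103 CPM in Cre. The WT libraries reached higher, and 2 Cre libraries lay inside their range. The means were 109 ± 5.88 and 104 ± 2.11 CPM (SD, n = 4 each), and the log2 fold change of -0.064 (SE 0.045) did not pass (adjusted p = 0.9995 by edgeR; exact permutation p = 0.171, 2-sided, over 70 splits, where 0.0286 is the smallest possible). A fall beyond -10.6% or a rise above 2.27% lay outside the interval.

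Cacna2d2 encodes the alpha2delta subunit lost in the ducky mouse, which has ataxia and absence seizures. Its level, the lowest of the 7, was 33.1, 31.3, 30.7 and 27.3 CPM in WT and 29.2, 29.7, 31.9 and 31.4 CPM in Cre. All 4 Cre libraries fell inside the WT range. The means were 30.6 ± 2.41 and 30.6 ± 1.28 CPM (SD, n = 4 each), and the log2 fold change was -0.0025 (SE 0.061, interval -8.87% to 9.36%). Its 6131 counts over the 8 libraries compare with 46981 for Cacna2d1.

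**Figure D2:**
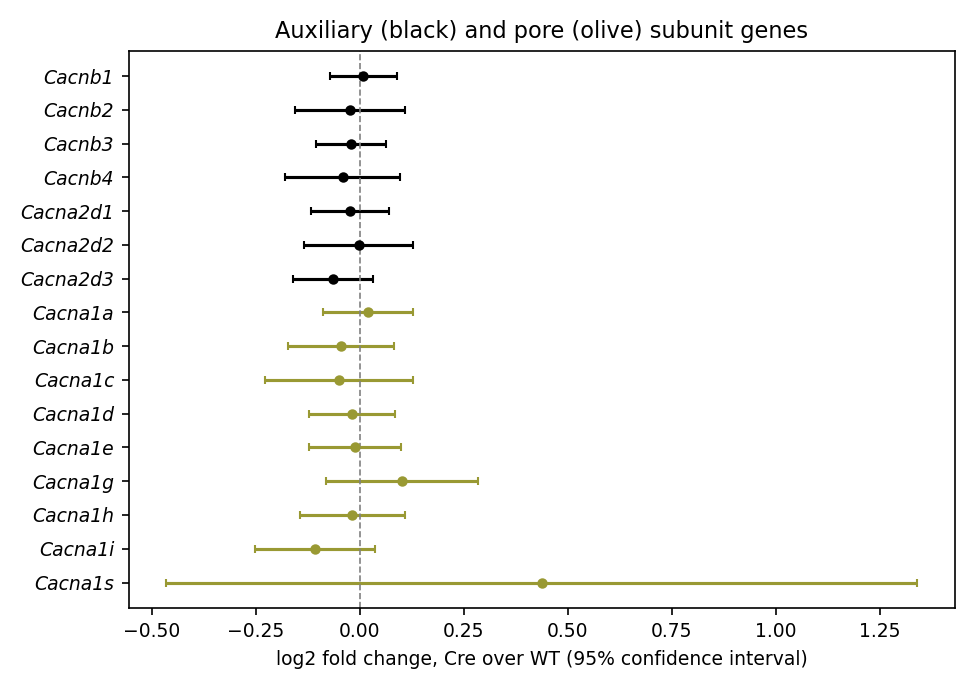
Log2 fold change of Cre over WT (horizontal axis) with 95% confidence intervals from edgeR, for the 7 auxiliary genes (black) and the 9 tested pore genes (olive). Every interval crosses 0, and the interval of Cacna1s, at under 1 CPM on average, is the widest.

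Some members share exonic bases with antisense transcripts, and the strand setting of the counting is not given in the sources used here. The largest shared stretch was 1433 bases of Cacnb4 (16.0% of its exonic bases) with A430018G15Rik, whose own entry held 17 to 27 counts per library. The other 5 such neighbours held at most 17 counts in any library, against 628 or more for every member. Depending on that setting, reads on shared bases may count for neither gene. Low counts of a neighbour thus do not bound what a member lost.

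The next comparison set the members against one another, which needs a correction for length. Levels were divided by the length of the merged exons of each gene, as CPM per kb. Cacnb3 was highest at 57.7 ± 2.27 in WT and 56.8 ± 1.45 in Cre (SD, n = 4 each), followed by Cacnb1 (34.1 ± 1.03 and 34.3 ± 0.56), Cacna2d1 (19.1 ± 0.58 and 18.8 ± 1.01), Cacnb4 (18.1 ± 1.12 and 17.6 ± 1.60), Cacna2d3 (12.5 ± 0.67 and 11.98 ± 0.24), Cacnb2 (5.43 ± 0.43 and 5.35 ± 0.34) and Cacna2d2 (3.85 ± 0.30 and 3.85 ± 0.16 CPM per kb). Of the 6 neighbouring pairs in this order, 5 kept it in 8 of 8 libraries (exact sign-flip adjusted p = 0.0094 for each). The order was taken from the means of the same 8 libraries. The p-values thus measure only how steadily the libraries kept it at this length. Per kb of merged exons, Cacna2d1 and Cacnb4 did not differ beyond their spread (log2 difference 0.093, SD 0.12, exact sign-flip adjusted p = 0.0703). Cacna2d1 was higher in 6 of 8 libraries. Cacnb3 stayed first and Cacna2d2 last under all 3 definitions of length, but the middle of the order turned with the definition. Per kb of the longest coding sequence, Cacnb4 stood in the second place (104 ± 6.43 CPM per kb in WT) and Cacnb2 stood above Cacna2d3 (36.6 ± 2.91 against 33.4 ± 1.80 CPM per kb in WT). Per kb of the longest transcript, Cacna2d3 stood above Cacnb4 (29.6 ± 1.59 against 19.7 ± 1.22 CPM per kb in WT). Cacna2d1 over Cacnb4 was 0.71 (log2) there and -0.52 per kb of coding sequence (exact sign-flip adjusted p = 0.0078 for each).

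**Figure D3:**
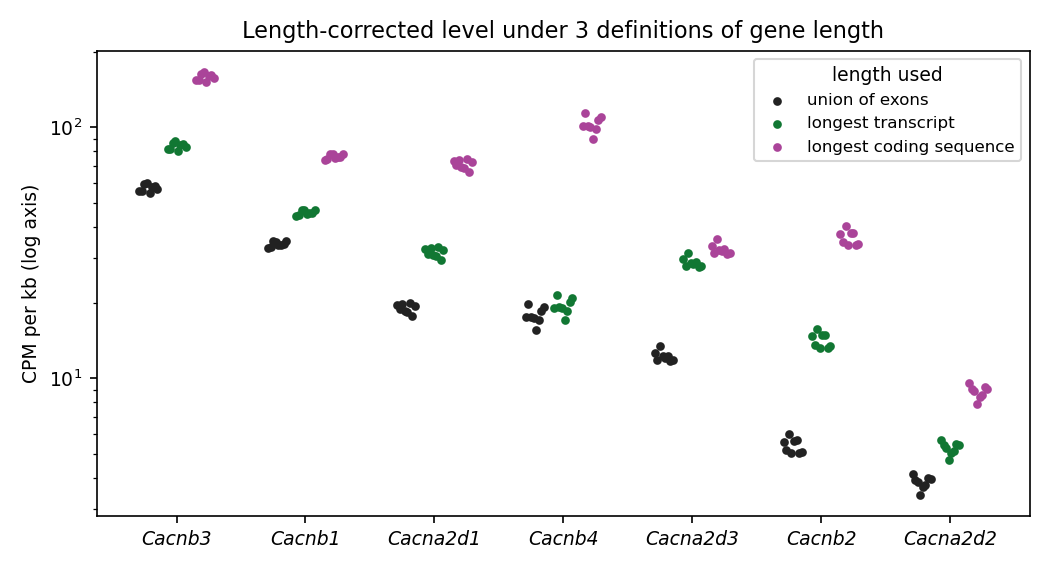
CPM per kb (vertical log axis) of the 7 genes, 8 libraries each, with length taken as merged exons (black), longest transcript (green) or longest coding sequence (purple). Cacnb3 is highest and Cacna2d2 lowest under each, while Cacnb4 moves between the second and the fifth place.

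The make-up of each family was then compared between genotypes. Within the beta family, per kb of merged exons, Cacnb3 made up 50.01% ± 0.95 of the summed level in WT and 49.8% ± 0.70 in Cre (SD, n = 4 each). Cacnb1 made up 29.6% ± 0.23 and 30.1% ± 0.58, Cacnb4 15.7% ± 1.16 and 15.4% ± 1.06, and Cacnb2 4.71% ± 0.38 and 4.70% ± 0.40. Within the alpha2delta family, Cacna2d1 made up 53.9% ± 0.47 in WT and 54.3% ± 1.17 in Cre. Cacna2d3 held 35.3% ± 0.91 and 34.6% ± 0.78, and Cacna2d2 10.9% ± 0.69 and 11.1% ± 0.69. The largest difference of the 7 shares was that of Cacna2d3, -0.68 percentage points in Cre, and 0 of 7 shares passed (exact permutation adjusted p from 0.90 to 0.943, n = 4 per group). A single separated share could not have passed here, since its adjusted p would be 0.20. The shares themselves depend on the length used: Cacnb4 made up 15.5% of the beta level over the 8 libraries per kb of merged exons and 27.5% per kb of coding sequence.

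**Figure D4:**
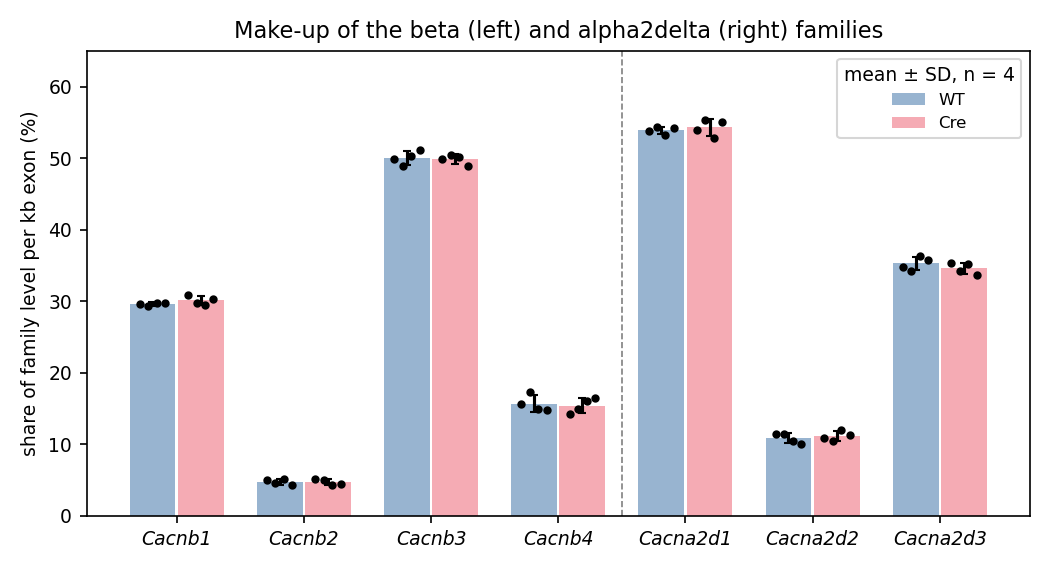
Share of each gene in the summed CPM per kb of merged exons of its family (vertical axis, %), as mean ± SD over 4 WT (blue) and 4 Cre (red) libraries with the libraries as points. Cacnb3 and Cacna2d1 lead their families in both groups, and no share differs by more than 0.68 percentage points.

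Family totals were set beside the sum of the pore list. That list includes the T-type genes Cacna1g, Cacna1h and Cacna1i (8.56, 18.1 and 11.7 CPM per kb of merged exons in WT). The ratios below are therefore not ratios of auxiliary subunits to the pores that bind them. The beta genes summed to 115 ± 2.76 CPM per kb of merged exons in WT and 114 ± 2.83 in Cre, the alpha2delta genes to 35.5 ± 1.37 and 34.6 ± 1.12, and the 10 pore genes to 104 ± 3.26 and 103 ± 6.07 (SD, n = 4 each). Beta over pore was 1.11 ± 0.032 in WT and 1.11 ± 0.090 in Cre, and alpha2delta over pore 0.342 ± 0.0091 and 0.338 ± 0.018. Like the shares, the size of these ratios rests on the length used, so they do not give numbers of subunits per channel. The Cre libraries spread more widely in the beta over pore ratio, from 1.004 in replicate 1 to 1.22 in replicate 3, against 1.08 to 1.16 in WT. Of 6 totals and ratios, 0 passed (exact permutation adjusted p from 0.96 to 1, n = 4 per group), and a single separated one would have had an adjusted p of 0.171.

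Of the 10 pore genes, 9 were tested, 6 with fold changes below 0 and 3 above (median -0.018), and 0 passed over all genes by edgeR or at an unadjusted p under 0.05. The lowest p belonged to Cacna1i, a T-type channel gene whose means were 116 ± 12.6 CPM for WT and 107 ± 2.51 CPM for Cre (log2 fold change -0.11, SE 0.067). Cacna1g, another T-type gene, had 86.8 ± 4.24 and 93.1 ± 14.1 CPM (0.10, SE 0.084), with Cre replicate 1 at 114 CPM and the other Cre libraries between 82.5 and 89.9 CPM. Cacna1s, the skeletal muscle pore gene, was at 0.41 ± 0.14 and 0.57 ± 0.35 CPM (0.44, SE 0.42), where counts are too few for a narrow interval.

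Further genes of these complexes came from lists given by name. Of 10 other auxiliary genes, 9 were tested, 3 below 0 and 6 above (median 0.056). Cacng2, which encodes stargazin, a protein now known mainly as an AMPA receptor partner, stood at 99.5 ± 3.19 CPM for WT and 103 ± 2.61 for Cre (log2 fold change 0.056, SE 0.040). Its relative Cacng4 had 30.4 ± 0.9996 and 31.6 ± 1.20 CPM (0.057, SE 0.048). Cachd1, which encodes a relative of the alpha2delta proteins, had 54.3 ± 6.18 and 51.1 ± 1.13 CPM (-0.088, SE 0.069). Cacna2d4, the remaining alpha2delta gene and best known from retina, was near the limit of measurement at 27 to 51 counts per library (log2 fold change 0.095, SE 0.21).

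The RGK proteins are small GTPases that bind beta subunits and inhibit the channels. Their 4 genes split evenly, with 2 below 0 and 2 above (median -0.047). Gem averaged 1.97 ± 0.014 CPM over WT and 2.42 ± 0.78 CPM over Cre (log2 fold change 0.30, SE 0.23). Cre replicate 1 stood at 1.30 CPM and the other Cre libraries at 2.51 to 2.98 CPM, so the Cre libraries lay on both sides of WT. These levels rest on 48 to 53 counts per library in WT and 31 to 81 in Cre. With so few counts, the small WT SD does not show a tighter level in WT. Rem1 and Rrad were below 1.27 CPM in every library, with log2 fold changes of -0.16 (SE 0.29) and -0.13 (SE 0.25).

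Of 10 extracellular and membrane partners of alpha2delta, 9 were tested, 5 below 0 and 4 above (median -0.012). Thbs4, which encodes a thrombospondin, averaged 18.9 ± 5.60 CPM over WT and 21.9 ± 0.92 over Cre (0.22, SE 0.16). Nrxn3, which encodes a presynaptic adhesion protein, had 233 ± 6.71 and 223 ± 12.3 CPM (-0.069, SE 0.044). All 15 genes listed as presynaptic and cytosolic channel partners were tested, 11 below 0 and 4 above (median -0.032). Akap6, which encodes a kinase-anchoring protein, had 254 ± 3.14 and 243 ± 11.4 CPM (-0.066, SE 0.039). Rims1, which encodes an active zone scaffold that binds beta subunits, had 232 ± 9.75 and 222 ± 11.2 CPM (-0.067, SE 0.045). Sorcs2, on the same list though it encodes a membrane sorting receptor, had 71.1 ± 0.93 and 68.3 ± 4.57 CPM (-0.058, SE 0.047). In all these lists 0 genes passed over all genes by edgeR, 0 had an unadjusted p under 0.05, and in 0 were the groups separate.

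Although the genotypes did not separate, the libraries did not vary alike for all members. The SD of log2 CPM within groups was 0.11 for Cacnb4 and 0.10 for Cacnb2, above the upper quartiles of 0.078 and 0.085 for genes within 0.5 log2 CPM of their level. It was 0.035 for Cacnb1, below the lower quartile of 0.043. Cacna2d2, at 0.092, lay between its quartiles of 0.064 and 0.107, as did Cacnb3 (0.048), Cacna2d1 (0.063) and Cacna2d3 (0.058) in theirs.

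Likeness across libraries was measured as the root mean square difference of standardised log2 CPM over the 8 libraries, where 0 is an identical pattern, as a description with no test. The median over 10529 genes was 1.26 to 1.35 for the 7 members. Cacnb2 and Cacna2d3 were the most alike pair of members (0.595), and Cacnb2 and Cacnb4 the least alike (1.67). Cacnb1 and Cacnb3 were nearest to each other (0.741), as were Cacnb4 and Cacna2d2 (0.965). Among all genes compared, the pattern of Cacnb4 was nearest to Lurap1 (0.163) and Galnt13 (0.257), that of Cacnb2 to Eif2d (0.216) and Ncoa6 (0.325), and that of Cacnb3 to Traf3 (0.230) and Tmem106b (0.258). Cacnb1 was nearest to Rps6kc1 (0.259) and Upf2 (0.282), Cacna2d1 to Tmem132b (0.292) and Cpsf2 (0.332), Cacna2d2 to Cox19 (0.243) and Ndst3 (0.372), and Cacna2d3 to Med24 (0.317) and Ube3c (0.318). With 8 libraries and this many genes, some close matches occur for any gene.

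Markers of hippocampal subfields varied across the same libraries. Of 16 marker lists, the one nearest to Cacnb4 was CA1 pyramidal neurons (0.716). Its 5 markers summed to 712, 794, 774 and 808 CPM in WT and 686, 652, 824 and 805 CPM in Cre. Both Cacnb4 and this sum were low in Cre replicates 1 and 2 and high in Cre replicates 3 and 4, while in WT replicate 4 the markers were the highest of WT and Cacnb4 the lowest. The nearest lists were interneurons for Cacnb3 (0.685, the closest of the 7), thalamus and habenula for Cacnb1 (0.814) and choroid plexus for Cacna2d2 (0.898), so the members did not share 1 list. The choroid plexus sum stood out in WT replicate 1 alone, which was also the highest library of Cacna2d2. With 8 libraries and 16 lists, some list lies near any gene. The list nearest to Cacnb2 was CA2 and CA3 pyramidal neurons (0.743), also the nearest to Cacna2d1 (0.974) and Cacna2d3 (0.814). Its 6 markers summed to 434, 370, 428 and 429 CPM in WT and 424, 458, 362 and 353 CPM in Cre. Cacnb2 was low with them in WT replicate 2 and Cre replicates 3 and 4, but also low in WT replicate 4, where the markers were not. The part of tissue make-up in these patterns was not tested, and in bulk RNA fewer cells of a type and less RNA per cell cannot be told apart. Markers of astrocytes (4182 to 4469 CPM in WT, 4506 to 5198 in Cre) and microglia (276 to 290 and 296 to 393 CPM) lay higher in every Cre library than in WT, though 0 of these 13 markers passed by edgeR. Cre replicate 1 was the highest in both sums. The other Cre libraries reached at most 4701 CPM for astrocytes and 307 CPM for microglia. In the sums of the other lists the groups overlapped, as for oligodendrocytes (3625 to 4076 CPM in WT, 3672 to 4649 in Cre). The part of these markers in the members' fold changes was not tested.

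**Figure D5:**
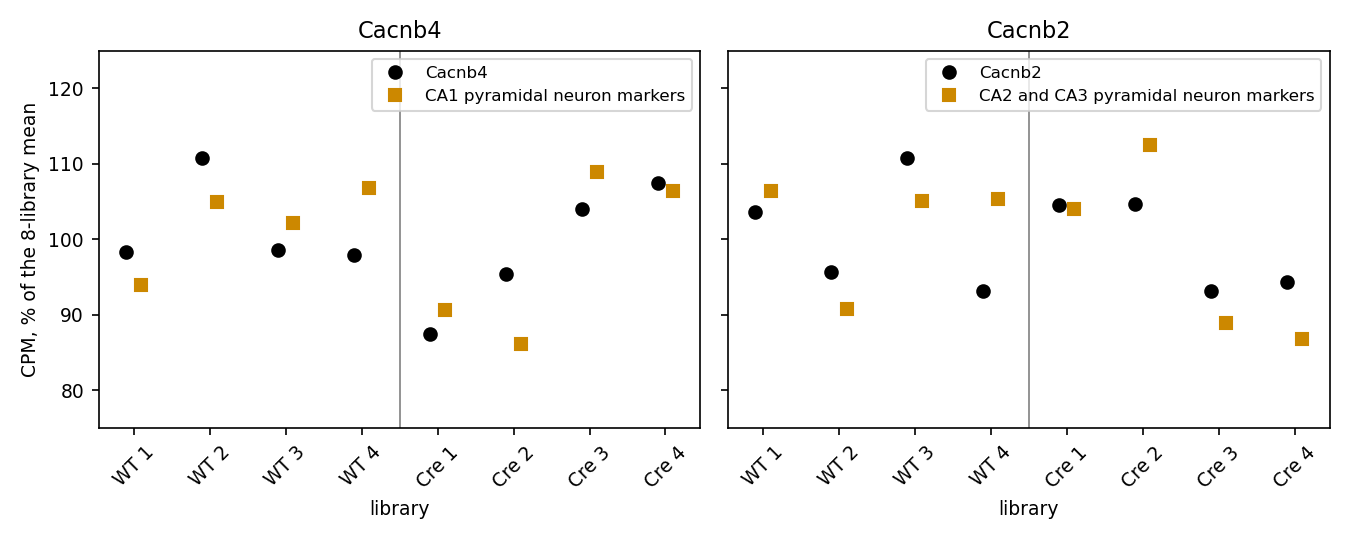
Level in each library as a percentage of the 8-library mean (vertical axis) for Cacnb4 beside the summed CA1 markers (left) and Cacnb2 beside the summed CA2 and CA3 markers (right); the grey line divides WT from Cre. Both Cacnb4 and CA1 markers are low in Cre replicates 1 and 2.

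The authors' deposited table gives the same 7 genes log2 fold changes of -0.063 (Cacna2d3) to 0.0095 (Cacnb1), with p-values from 0.264 to 0.990, at most 0.0013 away from the values computed here from the same counts.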

How the data were processed

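Per the labels' protocols, poly(A) RNA from hippocampal total RNA was made into directional libraries and sequenced paired-end (150 bases) in a single NovaSeq lane. The authors deposited raw counts, in whole numbers per symbol and library. The submitters' processing notes name GRCm38, STAR 2.6.1d, featureCounts and edgeR 3.11. The annotation, like the strand setting, is not given in the sources used here. A second table, of the authors' own comparison, lists for each gene a deposited log2 fold change, its linear fold, mean abundance (log2, and as a linear score) and p-value.

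Counts were filtered with filterByExpr (minimum count 10, minimum total 15), TMM-normalised and tested with edgeR's quasi-likelihood test (edgeR 4.0.16, R 4.3.3, 2-sided, no covariate), with Benjamini-Hochberg adjustment over 15859 genes and a threshold of 0.05. DESeq2 1.42.0 and limma 3.58.1 were alternatives. The test was checked on simulated data with the same variability for all genes and with changes larger than those of the members. That check does not cover changes as small as those of the members. The filtered genes hold 99.9% of each library. Log2 CPM used a prior count of 2. Lengths came from GENCODE M21. Shares, totals and single genes were compared by exact permutation over 70 splits, neighbouring levels by exact sign flips (smallest p 0.0078). Named genes are all 7 members, up to 3 genes of each list with the smallest p, and the 2 most alike genes of each member with a mean log2 CPM of at least 3. Cacna2d4 was added after its values were seen. A gene that this rule names is not reported here. Members and lists were chosen with earlier results of these data known. Intervals cover the spread between libraries as edgeR's fit estimates it, drawing the spread of each gene toward that of other genes. For Cacnb4 and Cacnb2, which varied more than most genes of like level, the intervals can be narrower than their own spread would give.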

Additional observations from a re-analysis of the deposited data

Results flagged for a closer look

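Among 70 groups of 4 libraries examined (each member, share, total and named gene in WT and in Cre), 3 held a library far from the other 3, and chance flags about 1 in 20 groups. WT replicate 2 had 177 CPM of Cacnb4, against 156 to 157 CPM in the other WT libraries. WT replicate 4 had 80.4 CPM of Cacna1g, against 88.5 to 89.3 CPM. WT replicate 3 had 247 CPM of Rims1, against 225 to 229 CPM.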

How the results depend on the processing

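Under 16 alternatives (other normalizations, filters and tests, the replicate block and leaving out each library), 0 of the 7 members passed, and 4 to 7 of all genes did. Without 1 library, log2 fold changes ran from -0.0055 to 0.023 for Cacnb1, -0.059 to 0.026 for Cacnb2, -0.037 to -0.00016 for Cacnb3, -0.083 to 0.013 for Cacnb4, -0.051 to 0.0074 for Cacna2d1, -0.053 to 0.037 for Cacna2d2 and -0.089 to -0.029 for Cacna2d3. Cacnb3 and Cacna2d3 thus kept their sign. Cacna2d2 also turned with library totals only (0.0032) and with limma voom (6.1e-05).

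Of the shares and totals, 0 passed under 10 alternatives, where a single separated value could not pass. Without Cre replicate 3 the Cacnb1 share was barely separate between the groups, with a mean 0.70 percentage points higher in Cre (exact permutation p = 0.0286, the smallest possible; adjusted p = 0.20). The lowest remaining Cre share was 29.7918% (replicate 2) and the highest WT share 29.7909% (replicate 3). The adjustment covers the 7 shares but not the 8 fits that each left out 1 library. Without 1 library, shares differed by 0.26 to 0.70 percentage points for Cacnb1, -0.17 to 0.10 for Cacnb2, -0.57 to 0.20 for Cacnb3, -0.68 to 0.25 for Cacnb4, 0.060 to 0.91 for Cacna2d1, -0.034 to 0.50 for Cacna2d2 and -1.02 to -0.35 for Cacna2d3. Log2 differences ran from -0.029 to 0.0021 for the beta total, -0.054 to -0.015 for the alpha2delta total, -0.048 to 0.020 for the pore total, -0.043 to 0.050 for beta over pore, -0.037 to 0.020 for alpha2delta over pore and -0.0060 to 0.048 for beta over alpha2delta. With longest transcripts, beta over pore was -0.0018, Cacna2d1 over Cacnb4 0.71 and Cacnb4 over Cacna2d3 -0.58. With coding sequences, beta over pore was -0.0035, the shares of Cacnb2 and Cacnb3 differed by 0.0041 and 0.0020 points, Cacna2d1 over Cacnb4 was -0.52 and Cacna2d3 over Cacnb2 -0.15. Without WT replicate 2 or Cre replicate 3, Cacna2d1 lay above Cacnb4 past the threshold (log2 difference 0.116 in each; exact sign-flip adjusted p = 0.0469).

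Deviations of same-numbered libraries had r = 0.20, -0.11, 0.020 and 0.021 across genes for replicates 1 to 4. WT replicate 2 reached r = 0.18 with a Cre library of another number, so the numbers were not taken as pairs. With the replicate block, 0 members and 6 genes passed. Depth limits Cacna2d4, Cacna1s, Gem, Rem1 and Rrad.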
